A study of Homo sapiens with 3 samples.

Results

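The C1orf63 promoter was 1 of 13 promoters edited in the study, and it was selected as every capped RNA 5′ end that the deposited list assigns to the target C1orf63. It contributed 6814 of the 131949 ends in the list, of which 5361 carried a deletion (edited ends) and 1453 did not (unedited ends). C1orf63 is the older name of RSRP1, which encodes an arginine and serine rich protein. The ends came from HEK293T, a human embryonic kidney cell line, transfected in 2 rounds with Cas9 protein bound to 1 guide RNA per target. The method, CRISPR-Cap, ligates an RNA oligonucleotide to the decapped 5′ end and reads each RNA from its start through the edited sequence, so that 1 read gives both the start and the allele. The series sets out to learn what editing promoter sequences in place does to initiation. The labels name 2 libraries and the list pools them without a column that separates them, so there is no replicate error, no test was made, and intervals cover counting and, where stated, the spread between deletions. Edited and unedited ends came from the same transfected cells, and no untransfected sample was analysed here.

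RNA polymerase II places its start by reading core promoter sequence around the start itself and by factors bound upstream or a short way downstream. Many human promoters have no TATA box and use several starts, and a start most often falls on a purine that follows a pyrimidine. A deletion downstream of a start changes the transcribed leader and can also remove bases that the initiation machinery contacts, while the start itself stays in place.

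The main start, the position with the most unedited ends, was base 25247454 of chromosome 1 (hg38, minus strand). It lies in exon 1 (25247309 to 25247519) of the protein-coding transcript ENST00000243189.11, 65 bases downstream of that transcript's annotated start. Exon 1 is wholly 5′ untranslated. In GENCODE release 29, 4 transcripts of the gene have an exon 1 that holds the main start, and 2 of them begin exactly there. The nearest other annotated gene, AL031432.3, lies 383 bases away on the plus strand.

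The edited site and the main start lie within 30 bases, chr1:25247427-25247456, read 5′ to 3′ in the sense of the RNA from the GENCODE transcript. The lines below are shown because start use is compared below by where a deletion began and ended. The capital in the top line is the main start, and capitals in the other lines are the deleted bases of 6 edited alleles, each with its number of edited ends.
Unedited: tcAgtgcgcatccggacgtaggaggtggag
1-base deletion, 118 ends: tcagtgcgcatccggacGtaggaggtggag
3-base deletion, 179 ends: tcagtgcgcatccggacgTAGgaggtggag
7-base deletion, 1133 ends: tcagtgcgcatccggaCGTAGGAggtggag
13-base deletion, 253 ends: tcagtgcgcatccggaCGTAGGAGGTGGAg
8-base deletion, 147 ends: tcagtgcgcatCCGGACGTaggaggtggag
14-base deletion, 179 ends: tcagtGCGCATCCGGACGTaggaggtggag
A seventh allele with 194 ends loses 25 bases, main start included, and is shown over chr1:25247432-25247461.
25-base deletion, 194 ends: gTCCCTCAGTGCGCATCCGGACGTAGgagg
Repeated bases let some deletions be written in more than 1 place without changing the allele. The 7-base deletion can be moved 3 bases towards the start and the 25-base deletion 6 bases, and the capitals show the placement in the list.

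Starts upstream of the main one lie in a separate stretch, chr1:25247480-25247497, in which the capitals mark the starts 38, 36 and 31 bases upstream of the main start, in that order.
Upstream starts: ccagcTtCtggtActttt
The start 31 bases upstream, position 25247485, is an A that follows a T, the usual initiation dinucleotide, as is the A of the main start after a C. The starts 36 and 38 bases upstream, at 25247490 and 25247492, are a C after a T and a T after a C. Starts 10 and 13 bases upstream (25247464 and 25247467) are a G after a C and an A after a T, in the stretch chr1:25247459-25247472 with both starts in capitals.
Intermediate starts: ctgctAacGtagtc

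On unedited alleles initiation was focused. The main start held 1137 of 1453 ends, or 78.3% (Wilson 95% interval 76.1 to 80.3%). Positions from 3 bases downstream to 3 bases upstream of it held 88.9% together. The start 3 bases upstream followed within that group with 72 ends, 4.96% (3.95 to 6.19%). The start 31 bases upstream held 68 ends, 4.68% (3.71 to 5.89%), and the stretch 29 to 41 bases upstream as a whole held 8.88%. Starts 8 to 14 bases upstream held 0.826%, or 12 ends. Ends were seen at 29 positions, 8 of them with at least 1% of the ends.

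Edited ends were spread over more starts. The main start held 1502 of 5361 edited ends, 28.0% (26.8 to 29.2%), and the start 31 bases upstream held 1830, 34.1% (32.9 to 35.4%). The stretch 29 to 41 bases upstream held 52.4% of edited ends against 8.88% of unedited ends. Starts 8 to 14 bases upstream held 7.13% against 0.826%, with 124 edited ends at the start 10 bases upstream and 219 at the start 13 bases upstream, where 4 and 8 unedited ends lay. Starts 54 to 75 bases upstream held 5.63% against 1.10%. Ends were seen at 75 positions, 13 of them with at least 1%. The count of positions is not matched for depth, since there were 5361 edited and 1453 unedited ends. Some positions had no unedited end, such as the one 55 bases upstream with 31 edited ends. Of the ends within exon 1, 85.4% of the unedited and 74.9% of the edited ones fell on a purine after a pyrimidine. The starts 36 and 38 bases upstream, which do not have that dinucleotide, held 5.89% and 4.78% of edited ends, against 1.86% and 1.10% of unedited ends.

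**Figure D1:**
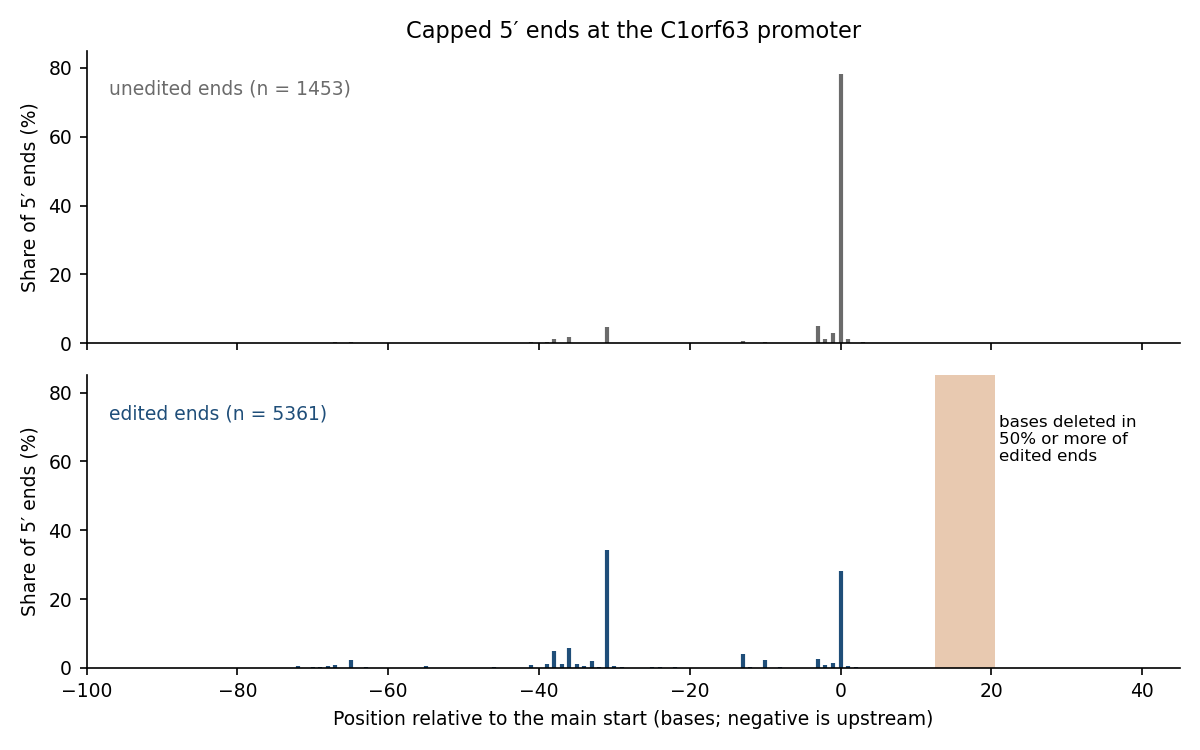
Share of capped 5′ ends (%, vertical axis) at each position relative to the main start (bases, negative is upstream) for 1453 unedited ends (top) and 5361 edited ends (bottom). The shaded band marks the bases lost in at least 50% of the edited ends; the peak at the main start is 78.3% of unedited and 28.0% of edited ends, and the peak 31 bases upstream is 4.68% and 34.1%.

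The deletions lay downstream of the main start and most left it in place. There were 392 distinct deletions of 1 to 92 bases, with a median of 10 bases over edited ends. Only 6.60% of edited ends had lost 1 or 2 bases, and 51.2% had lost 10 or more. The base lost most often was 25247438, 16 bases downstream of the main start, missing from 82.2% of edited ends. On the side of the start, 79.7% of edited ends had lost the base 14 bases downstream and 51.5% the base 13 bases downstream. The 7-base deletion from 25247434 to 25247440 made up 21.1% (20.1 to 22.2%) of edited ends, the 13-base deletion with the same upstream edge (25247428 to 25247440) 4.72%, and the 10 most frequent deletions 48.5% together. In 672 edited ends (12.5%), over 118 deletions, the main start itself was deleted. The number of edited ends of an allele joins how often that allele formed with how much RNA it made, and without genomic DNA counts these cannot be told apart.

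Start use was then related to the upstream edge of the deletion, given as the number of bases retained from the main start, itself counted, to the deletion. With 1 to 6 bases retained, the main start held 4 of 1099 edited ends (0.364%, 0.142 to 0.932%). With 6 bases retained it held 1 of 170 ends (0.588%, 0.104 to 3.26%), and with 7 bases it held 30 of 107 (28.0%, 20.4 to 37.2%). The intervals for 6 and for 7 retained bases did not overlap. Where along the bases this difference fell depended on how movable deletions were placed. With each at its highest coordinate, a check chosen after seeing the data, the main start held 0 of 150 ends with 5 bases retained, 18 of 56 (32.1%, 21.4 to 45.2%) with 6 and 27 of 128 (21.1%, 14.9 to 28.95%) with 7. As listed, the share was 23.6% with 8 bases, 28.0% with 9, 39.04% with 14, and 54.6%, 56.2% and 50.7% with 15, 16 and 17. None of these reached the unedited 78.3%, and each interval lay below it.

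Edited ends with few retained bases were rare at other starts and other promoters too. Among all C1orf63 edited ends, 9 had fewer than 7 retained bases, while 30 had 7 and 35 had 8. Over the other 12 targets, 118 of 76753 edited ends had fewer than 7, 218 had 7 and 1663 had 8. The start 13 bases upstream held 0 of 130 ends on alleles that left it 1 to 6 bases, 4 of 415 (0.964%, 0.375 to 2.45%) with 7 to 12 bases and 92 of 1160 (7.93%, 6.51 to 9.63%) with 13 to 19. With 20 or more bases it held 123 of 3590 (3.43%, 2.88 to 4.07%). Whether the alignment of reads with a short stretch before the deletion has a part in this difference was not tested.

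**Figure D2:**
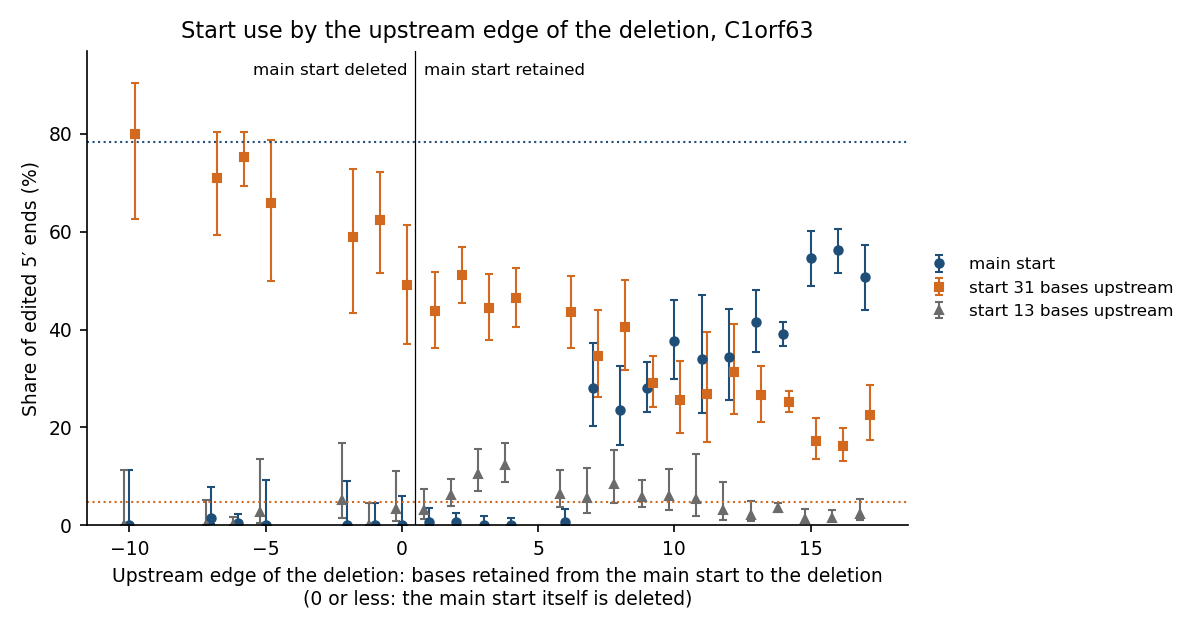
Share of edited 5′ ends (%, vertical axis) at 3 starts against the upstream edge of the deletion (bases retained from the main start; 0 or less means that the main start is deleted), for edges with at least 30 ends. Points are shares with Wilson 95% intervals and dotted lines the unedited shares of the main start (78.3%) and of the start 31 bases upstream (4.68%); with deletions placed as listed, the main start is near 0 up to 6 retained bases and at 28.0% with 7.

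The start 31 bases upstream took most ends where the main start was deleted. On those alleles it held 442 of 672 ends, 65.8% (62.1 to 69.3%), and the stretch 29 to 41 bases upstream held 86.0%. On the 25-base deletion shown above it held 146 of 194 ends, 75.3% (68.7 to 80.8%). With 1 to 6 bases retained it held 46.4% (43.5 to 49.4%), with 7 to 12 bases 30.9% (27.7 to 34.2%), and with 13 to 17 bases 22.7% (21.2 to 24.4%). Each of these classes was above the unedited 4.68%, and their intervals, which cover counting only, did not overlap each other. With 18 or more bases it held 18.3% of 60 ends (10.6 to 29.9%), an interval that overlapped those for 7 to 12 and 13 to 17 bases. Single deletions with at least 30 ends and 13 to 17 bases ran from 0% to 32.4%. Over the 20 such deletions with 7 or more bases, this share followed deletion length (rho = 0.84) more than the edge (rho = −0.28).

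Shares add up to 100%, so a lower share at the main start raises the others. Shares were therefore also compared at positions 8 or more bases upstream of each deletion only. That takes the main start out of both sides only where a deletion removed it or left it fewer than 8 bases. With 8 or more bases left it stayed in, so its lower share still raises the others there. The values over all deletions pool both kinds. The unedited share was formed for each deletion over the same positions, and each deletion counted in proportion to its edited ends. The start 31 bases upstream was singled out for having the largest matched gain of the upstream starts, so its differences are a description. Over all deletions the start 31 bases upstream held 35.4% of 5174 edited ends against 17.5% of the matched unedited ends, a difference of 17.9 percentage points (95% interval 13.7 to 22.1, with deletions as units and counting of unedited ends). With 1 to 6 bases retained, the matched values were 48.7% and 41.1%, and the interval of the difference spanned 0 (7.59 points, −1.15 to 16.3). Where the main start was deleted they were 69.0% and 46.0% (22.9 points, 13.4 to 32.4). With 13 to 17 bases retained they were 23.2% and 4.72% (18.5 points, 14.6 to 22.3), with the main start still among the positions compared.

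The make-up of the upstream starts also differed between these classes. Among ends 29 or more bases upstream, the start 31 bases upstream held 68 of 145 unedited ends, 46.9% (39.0 to 55.0%), and 442 of 654 ends with the main start deleted, 67.6% (63.9 to 71.1%). The start 36 bases upstream held 18.6% (13.1 to 25.7%) and 5.66% (4.13 to 7.70%) of the same ends. With 1 to 6 bases retained the start 31 bases upstream held 53.2% (50.1 to 56.4%), and its interval overlapped the unedited one. The start 65 bases upstream, at the annotated start of the transcript, held 4.14% of these unedited ends (1.91 to 8.73%) and 3.76% of these edited ends (3.15 to 4.49%), with overlapping intervals.

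The main start in the same matched comparison held 28.3% of edited ends against 52.0% of unedited ends (−23.7 points, −31.5 to −15.9). Deletions that removed the main start or left it fewer than 8 bases entered with 0% on both sides. They lower both shares and draw the difference towards 0. Among deletions that left it 13 to 17 bases it held 45.6% against 78.8% (−33.2 points, −40.2 to −26.3). The mean position of edited ends was 7.86 bases (5.38 to 10.3) upstream of that of the matched unedited ends. With at least 20 retained bases the difference at the main start was −0.346 points and the mean position lay 1.85 bases downstream in place of upstream, with an interval that spanned 0 (−3.97 to 0.266). In that setting the main start could be compared only on the 37 edited ends whose deletion left it 20 or more bases. All other deletions entered with a main-start share of 0 on both sides, which holds the difference near 0. With the minimum of 8, deletions that left the main start 18 or more bases had 48.3% of 60 edited ends there. The matched unedited share was 78.8% (−30.5 points, −41.9 to −19.2).

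Single alleles showed how far the main start varied at like edges. Among the 32 deletions with at least 30 ends, which held 67.6% of edited ends, its share ran from 0% to 73.7%, with a median of 39.4%. It went up with the retained bases (Pearson r = 0.85, Spearman rho = 0.84) and down with the length of the deletion (r = −0.89, rho = −0.90), and the edge and the length went with each other (r = −0.89, rho = −0.83). In 12 of the 32 the main start was deleted or had 1 to 6 bases retained, and its share was 1.23% or less. These 12 enter the values above, and a deleted main start could hold almost no ends whatever the edge. Among the 20 others, which retained 7 or more bases, the main start followed length (rho = −0.84) more than the edge (rho = 0.53). Among the 14 that retained 13 to 17 bases, rho was −0.86 with length, 0.23 with the upstream edge and −0.81 with the downstream edge of the deletion. That set was selected for a narrow range of upstream edges, which limits how far the share could follow the upstream edge. At like upstream edges a longer deletion also reaches farther downstream, so length and downstream edge cannot be told apart here. These values describe deletions that share libraries and sequence, and carry no p-value.

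**Figure D3:**
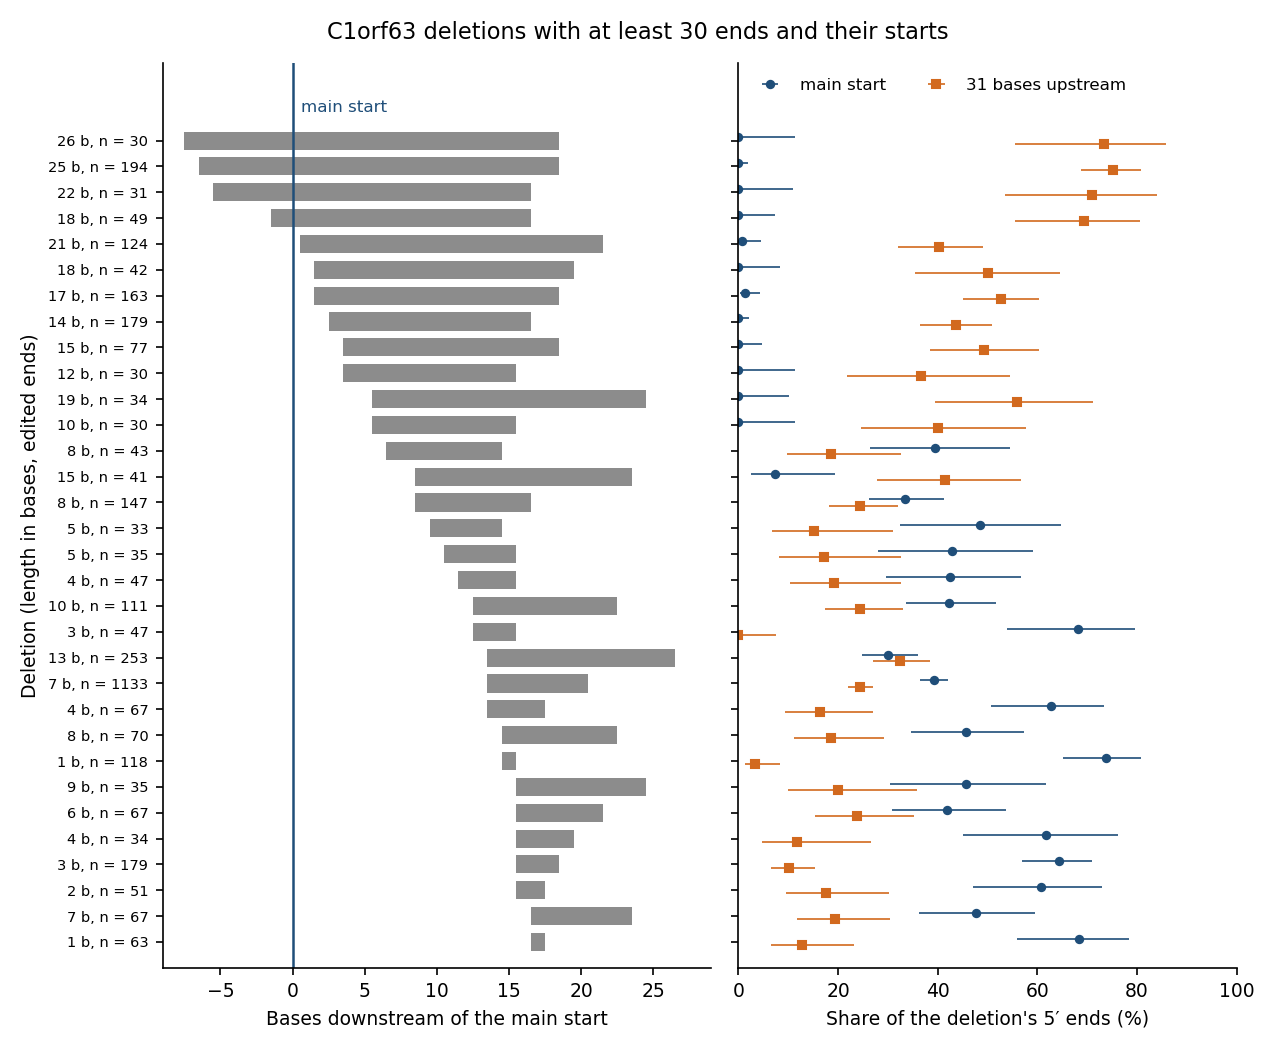
The 32 C1orf63 deletions with at least 30 ends, drawn to scale as grey bars in bases downstream of the main start (left), with the share of each deletion's 5′ ends (%) at the main start and at the start 31 bases upstream and Wilson 95% intervals (right). Rows are ordered by upstream edge and then by length; the main start is at 1.23% or less in the top 12 and at 7.32% to 73.7% in the other 20.

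The main start was used more on short deletions than on long ones at like edges, a comparison chosen after the values were seen. With 13 to 17 bases retained, deletions of 1 or 2 bases had 66.4% of their 330 ends at the main start (61.1 to 71.2%), and deletions of 3 or 4 bases had 62.6% of 340 (57.4 to 67.6%). Deletions of 5 to 9 bases had 40.2% of 1456 ends (37.8 to 42.8%) and deletions of 10 or more bases 34.04% of 617 (30.4 to 37.9%). Deletions of up to 4 bases thus stood 26.1 points (21.03 to 31.1, deletions as units) above longer ones, at 64.5% over 16 deletions against 38.4% over 67. The start 31 bases upstream went the other way, with 10.1% (8.09 to 12.7%) on the deletions of up to 4 bases and 26.8% (25.0 to 28.8%) on the longer ones. These values pool edges that short and longer deletions held unequally. Of the ends of short deletions 97 of 670 retained 14 bases, against 1440 of 2073 of the longer ones. With 14 bases retained the main start held 60.8% on short and 37.6% on longer deletions, and with 16 bases 64.4% and 42.0%. The point values of named alleles were apart: the 7 deletions of up to 4 bases with at least 30 ends had 60.8% to 73.7% at the main start, and the 7 longer ones 30.04% to 47.8%, while some of their intervals overlapped. With 7 to 12 bases retained the difference was 9.99 points and its interval spanned 0 (−0.355 to 20.3), with 66 ends on short deletions.

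The allele that lost 1 base at 25247439 came nearest to the unedited profile. Of its 118 ends, 73.7% (65.1 to 80.8%) were at the main start and 3.39% (1.33 to 8.39%) at the start 31 bases upstream, and both intervals held the unedited share. The other 1-base deletion, at 25247437, had 63 ends, with 68.3% (56.0 to 78.4%) at the main start and 12.7% (6.58 to 23.1%) at the start 31 bases upstream. For the latter the interval lay above the unedited share. The intervals of these neighbouring alleles overlapped at both starts.

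Alleles with the same upstream edge and 7 or more bases retained were set side by side, the shortest against the longest with at least 30 ends. With 14 bases retained, the 4-base deletion had 62.7% at the main start, the 7-base deletion 39.3% and the 13-base deletion 30.04%. The shortest exceeded the longest by 32.6 points (Newcombe 95% interval 19.3 to 44.5). With 15 bases retained, the 1-base deletion exceeded the 8-base deletion by 28.0 points (13.6 to 41.2), 73.7% against 45.7%; neither can be moved. With 9 bases retained, an 8-base deletion had 33.3% and a 15-base deletion (25247431 to 25247445) 7.32%, a difference of 26.02 points (11.97 to 35.3). The shorter allele was higher at all 6 edges that allowed this comparison, by 15.1 to 32.6 points, and the interval excluded 0 at 5 of them. It spanned 0 with 16 bases retained (15.1 points, −6.07 to 34.6), where a 2-base deletion was set against a 9-base deletion. The shared edges are those of the placement in the list. With 13, 14, 16 and 17 bases retained, the longest allele can be moved farther towards the start than the shortest. Moved so, it would retain fewer bases. Only the pairs with 9 and 15 bases keep a shared edge when both alleles are moved.

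Alleles of the same length with different upstream edges, again with 7 or more bases retained, gave 10 pairs over 6 lengths. The allele that retained more bases was higher in 5 of the 10, and the differences ran from −6.20 to 20.1 points. The Newcombe interval excluded 0 in 1 pair, the 4-base deletions with 14 bases retained (62.7%) and with 12 (42.6%), which differed by 20.1 points (1.59 to 36.9). Deletions of 8 bases retained 7, 9 and 15 bases, and the main start held 39.5% (26.4 to 54.4%), 33.3% (26.2 to 41.3%) and 45.7% (34.6 to 57.3%) of their 43, 147 and 70 ends. The 7-base deletions with 17 and 14 bases retained had 47.8% and 39.3%, a difference of 8.48 points (−3.38 to 20.6). Of the 10-base deletions, the one with 6 bases retained had 0 of 30 ends at the main start and the one with 13 bases retained 42.3%. The former is outside the 10 pairs, in the range of fewer than 7 retained bases where edited ends were rare at other starts too. An interval that spans 0 does not show that alleles acted alike.

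**Figure D4:**
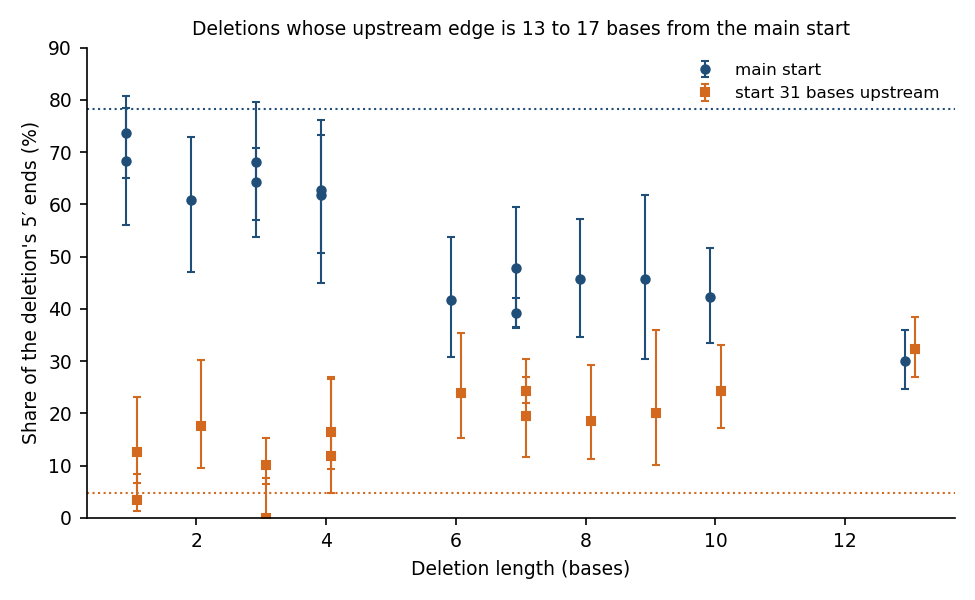
Share of each deletion's 5′ ends (%, vertical axis) at the main start and at the start 31 bases upstream against deletion length (bases), for the 14 deletions with at least 30 ends that retain 13 to 17 bases. Bars are Wilson 95% intervals and dotted lines the unedited shares (78.3% and 4.68%); lengths of up to 4 bases lie at 60.8% to 73.7% for the main start and longer ones at 30.04% to 47.8%.

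Deletions with 1 shared downstream edge, as placed in the list, were compared next. Deletions that all end at 25247439, 15 bases downstream of the main start, and grow towards it had 73.7% of ends at the main start with 1 base lost, 68.1% with 3, 42.6% with 4 and 42.9% with 5. With 10 and 12 bases lost, which left 6 and 4 bases, it held 0 of 30 ends each (up to 11.4% by the Wilson interval). The start 31 bases upstream held 3.39% with 1 base lost, 0% of 47 ends with 3, 19.1% with 4, 17.1% with 5, 40.0% with 10 and 36.7% with 12. The start 13 bases upstream held 6 of 30 ends (20.0%) on the 12-base deletion and 0 of 47 on the 3-base deletion. The 3-, 4-, 10- and 12-base deletions can be moved 1, 2, 2 and 1 bases towards the start, which moves both of their edges. The 1-base and 5-base deletions cannot be moved.

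The same length comparison was possible in 3 other targets, with at least 100 ends of short and of long deletions that left the main start 13 to 17 bases. The difference in main-start share between short and long deletions was 25.0 points at LETMD1 (16.6 to 33.3), 19.9 at TMED9 (12.2 to 27.5) and −1.65 at ECI1 (−13.2 to 9.87). Against these, C1orf63 had 26.1 points. Differences between targets were not tested. For starts 8 to 19 bases upstream of a deletion relative to starts farther upstream, the edited to unedited odds ratio at C1orf63 was 0.191 (0.140 to 0.259). On deletions that left the main start 8 to 19 bases, that start is among the nearer ones. The interval also lay below 1 at NDUFV3 (0.339), RBM4 (0.346), TMED9 (0.401), HSF1 (0.427) and C19orf43 (0.428). It spanned 1 at LETMD1 (0.682, 0.353 to 1.32) and ECI1 (0.920, 0.648 to 1.31).

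Sequence motifs were searched on both strands of the 211 bases of exon 1, which reach 65 bases upstream of the main start. The letters were GGGCGG for SP, CCAAT for NFY, CCGGAA for ETS, AAGATGG for YY1, TATAAA for the TATA box and GGTAAG for the 5′ splice site, and the CRE and NRF1 motifs were searched as well. None of the first-named letters was found, and the CRE motif was not found either. The NRF1 motif was found once, at chr1:25247504-25247513, in a match that reads the same on both strands. It begins 59 and ends 50 bases upstream of the main start, and its last base is 19 bases upstream of the start 31 bases upstream.
NRF1-type match, motif in capitals: ctctGCGCATGCGCcggg
Of 19685 protein-coding genes, 2.20% had the NRF1 motif in the 211 bases that open the transcript taken for the gene. For the other motifs this share ran from 0.498% (CRE) to 34.2% (SP). The match was outside all 32 deletions with at least 30 ends, the longest of which on the start side ended at 25247461. A match is a description of sequence and says nothing on binding.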

How the data were processed

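The submitters' processing notes name STAR and hg38 without versions or settings. The authors deposited a list with 1 line per capped 5′ end, giving other values than counts: the position of the end and the edges and length of its deletion. The oligonucleotide carries 8 random bases, and collapsing on them is not stated; if lines are PCR reads, the intervals are too narrow. Positions were taken as counted from 0 and 1 was added; coordinates printed are counted from 1. Strand, exon and sequence came from GENCODE release 29 on the same build. The reporter tables of the series do not name C1orf63 and were not used.

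Ends were tallied per start and deletion (Python 3.11.15, pandas 2.3.3, scipy 1.17.1). The matched comparison kept positions at least 8 bases upstream of each deletion with at least 10 ends. Its 95% intervals are delta-method intervals over deletions and unedited ends; shares carry Wilson intervals and differences of shares Newcombe intervals. The calculations were tested on simulated data, only for deletions that left the main start 8 or more bases. Matched intervals held the true change in 90% of 20 runs with no ends moved and in 95% with 30% of main-start ends moved. Intervals of the short against long difference, simulated without a length effect, held 0 in 100% and 85% of these runs. By rule, starts named held at least 5% of unedited or edited ends, and deletions named were the 10 most frequent and, among those with at least 30 ends, the nearest to and farthest from the main start. The starts 3, 10, 13, 38 and 65 bases upstream, the other deletions given singly, and the comparison by length fall outside it and were chosen after their values were seen. The target and its main comparisons were chosen with earlier results of these data known. Alternatives are in the closing section.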

Additional observations from a re-analysis of the deposited data

How the results depend on the processing

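No paired analysis was possible because the deposited list pools both libraries, and for the same reason neither library could be left out. Of 54 recomputed values, 44 stayed within the 95% interval of the reported one. The number of retained bases moved the most. With at least 20 in place of 8, the change in main-start share was −0.346 points, the gain 31 bases upstream 10.1 points, and the mean position turned to −1.85 bases, downstream. With no minimum these were −50.0 points, 30.4 points and 17.8 bases. With at least 20 bases, deletions that left the main start fewer than 20 entered with no main-start share on either side. The small change in that setting therefore follows largely from the matching. The edited share of ends, 78.7%, was 75.7% with deletions of at least 10 ends only and 77.5% with deletions of at least 3 bases only. The difference between short and long deletions was 9.99 points with 7 to 12 bases retained; other alternatives for it ran from 21.9 points (deletions placed at their highest coordinate) to 27.1 points. All alternatives for this difference and for the correlation with the edge, the shares with 6 and 7 bases retained under another placement, and the minimum of 7 retained bases, were chosen after seeing the data. The cause was not tested. Depth limits the unedited side: 157 unedited ends lay 8 or more bases upstream of deletions that left the main start 1 to 4 bases.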
